A study of Mus musculus with 4 samples.

Results

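The cells described are the fibroblasts of adult mouse liver, 113 of the 11981 adult cells kept and of 27874 cells kept in all 4 libraries of the series. A cell belonged to them when at least 3 of the 7 fibroblast genes Dcn, Dpt, Gsn, Col1a1, Col1a2, Col3a1 and Lum had a UMI (a unique molecular identifier, which marks 1 captured RNA molecule) and when Msln, Upk3b and Epcam, genes of mesothelial cells and bile duct cells, had none. Barcodes under 300 genes or over 25% mitochondrial UMIs had been removed first. The rule found 48 cells in the adult Ctrl library and 65 in the adult IHG library. The study sequenced liver cells of male offspring whose mothers were controls (Ctrl) or had hyperglycemia during pregnancy (intrauterine hyperglycemia, IHG), as fetuses at E18.5 and as adults at 8 weeks, and asked about inflammatory traits of the liver. Each of the 4 groups was 1 library prepared with a 3′ droplet kit, and the labels say that material was pooled from 3 pregnant mice or 3 adults. Adult livers were perfused through the portal vein, digested with collagenase, DNase and hyaluronidase, spun, and treated to lyse red cells. The strain and the way hyperglycemia was produced are not given in the sources used here. With 1 pooled library a group there is no replicate error and no test: every interval below is a 95% interval that covers counting error only, and a difference between libraries cannot be told apart from a difference between mice or preparations.

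Fibroblasts make and remodel the collagens, proteoglycans and elastic fibres of the extracellular matrix. In the liver they lie around the portal vessels and bile ducts and in the capsule and vessel walls, whereas hepatic stellate cells lie along the sinusoids, store vitamin A and can turn into matrix-producing myofibroblasts after injury. Fibroblasts also sense cytokines: interferons bind receptors that signal through JAK kinases to transcription factors, which bind a DNA element, the interferon-stimulated response element, in front of antiviral genes.

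The 113 cells carried the fibroblast genes by construction. Dcn, which encodes the collagen-binding proteoglycan decorin, had a median of 69 UMIs a cell in Ctrl (0 to 149) and 72 in IHG (2 to 150). Gsn, encoding the actin-severing protein gelsolin, had medians of 59 and 92. All 7 genes were seen in 34 Ctrl and 45 IHG cells. Just inside the rule, 3 Ctrl cells and 1 IHG cell had exactly 3 of the genes, with 3 to 40 UMIs of them in the Ctrl cells and 5 in the IHG cell. Just outside it, 6 cells of each library had 2 of the genes, with a median of 2 UMIs of them in either library and a highest value of 22 in Ctrl and 3 in IHG. A further 41 Ctrl and 23 IHG cells had at least 3 of the genes and were kept out by Msln, Upk3b or Epcam.

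The working name also held stellate cells, which the markers did not bear out. Of 19 stellate cell markers, Lrat, the enzyme that esterifies retinol for storage, and Reln, Colec10, Rgs5, Vipr1 and Ngfr had no UMI in any of the 113 cells, which allows a share of up to 2.65% of cells with a UMI (3 cells of 113). Colec11 had 1 UMI and Hgf had 2. The list summed to 1767 CPM (UMIs per 1000000 UMIs of the fibroblasts) in Ctrl and 1776 in IHG, carried largely by Ecm1, Cygb and Sod3, which other fibroblasts can also express. The list of portal and adventitial fibroblast markers, by contrast, summed to 5249 and 12591 CPM, so the cells are called fibroblasts here. Among all genes with at least 100 UMIs in these cells, those with the highest ratio over the other adult cells included Abca8a, a membrane transporter, at 318 CPM against 0, the complement component C7 at 202 against 0.0545, and Pcolce2, an enhancer of procollagen cleavage, at 361 against 0.136. These values describe the choice of cells and are no finding.

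**Figure D1:**
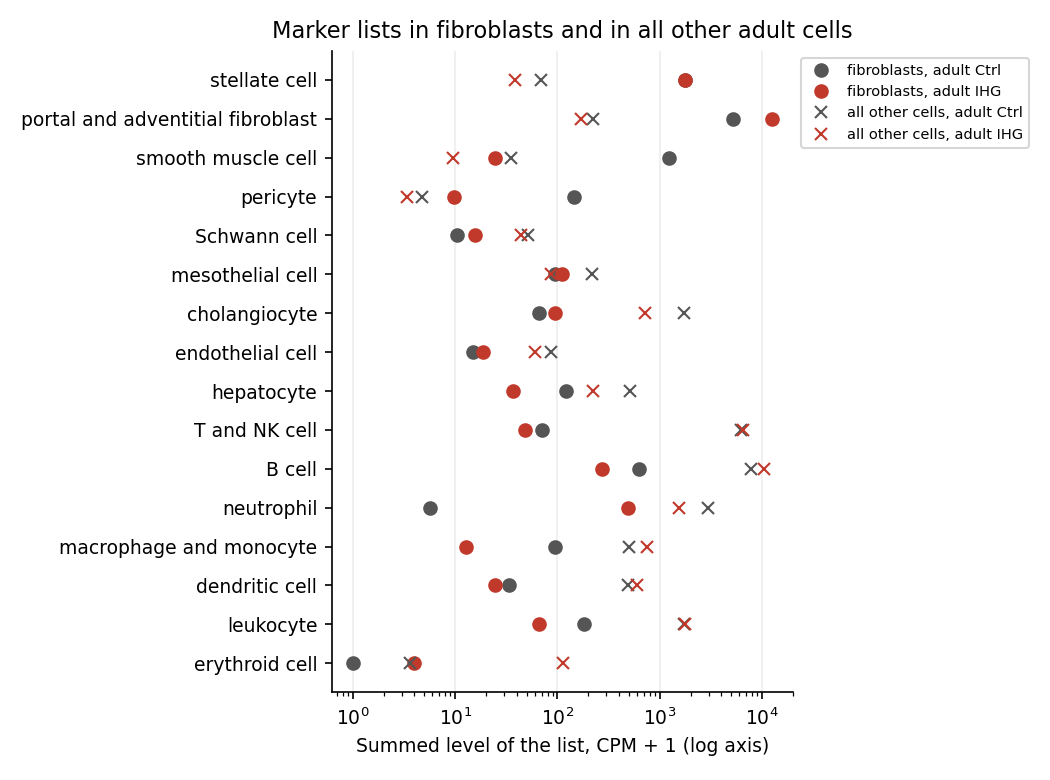
Summed level of each marker list in CPM plus 1 (log axis) in the fibroblasts and in all other adult cells, for the Ctrl and the IHG library. The fibroblast lists stand far to the right of the other cells, the portal and adventitial list is at 5249 CPM in Ctrl and 12591 CPM in IHG fibroblasts, and the smooth muscle list is at 1221 CPM in Ctrl against 23.6 CPM in IHG.

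Some fibroblast barcodes also held RNA of other cell types. The 7 B cell markers summed to 625 CPM in Ctrl and 271 CPM in IHG fibroblasts, against 7738 and 10444 CPM in the other cells, and 6 Ctrl and 4 IHG fibroblasts had at least 2 of the 7. By a rule on leukocyte and endothelial genes, 10 Ctrl and 6 IHG cells carried such RNA. Hepatocyte markers summed to 121 and 35.4 CPM, macrophage and monocyte markers to 93.2 and 11.8 CPM, and endothelial markers to 14.0 and 17.7 CPM. Some genes rested on single barcodes. A Ctrl barcode of 19845 UMIs, 9.25% of all Ctrl fibroblast UMIs, held all 225 UMIs of Saa3, 682 of Cxcl13 and 37 of Cxcl5. A Ctrl barcode of 5983 UMIs held 128 UMIs of Tagln and 96 of Acta2 with no Dcn. An IHG barcode of 11196 UMIs held 101 of Slpi, and an IHG barcode of 1973 UMIs held 98 of S100a9, a neutrophil gene. The chemokine, cytokine, acute-phase, contractile and matrix medians and some single genes are given with and without these 4 barcodes, an alternative chosen after the data were seen. Other values include the 4.

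The fibroblasts were deeper than most cells of their libraries, with medians of 4218 UMIs in Ctrl (569 to 19845) and 5701 in IHG (549 to 11196), against 2572 and 2248 over all kept cells. Their mitochondrial share was low in both libraries, with medians of 2.31% and 2.06%. Both adult libraries kept 8 barcodes in common, none of them a fibroblast. In total the fibroblasts held 214513 UMIs in Ctrl and 339059 in IHG.

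The share of fibroblasts among kept cells was near equal in the adult libraries. It was 0.924% of 5195 cells in Ctrl (exact Clopper-Pearson interval 0.682% to 1.22%) and 0.958% of 6786 cells in IHG (0.740% to 1.22%), a log2 ratio of 0.05 with an interval of -0.51 to 0.62. The interval leaves room for a difference of either sign. The same rule found 15 of 7701 fetal Ctrl cells, 0.195%, and 15 of 8192 fetal IHG cells, 0.183%, a log2 ratio of -0.09 (-1.22 to 1.05). Digestion and the spin can set how many fibroblasts enter a suspension, which was not tested.

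Between the adult libraries interferon-stimulated genes and several adventitial markers were higher in IHG fibroblasts, MHC class II genes were lower, and the matrix lists had a median near 0. Of 3452 genes with at least 20 UMIs over both libraries, 298 were at least 2-fold higher in IHG (8.63%) and 231 at least 2-fold lower (6.69%), and the median log2 ratio over all of them was -0.05. Any higher value was seen in 47.2% of genes and any lower value in 52.8%. These shares are the background for every list below that covers all adult fibroblasts, and with 20 UMIs counting error alone gives wide ratios. Of the 12 highest ratios among 1293 abundant genes, 7 belonged to interferon-induced genes, among them Ifit3b, Gbp6, Xaf1, Ifit3, Oasl2 and Trim30a, with Igfbp5, Angptl1, Apod and the single-cell genes S100a9 and Slpi making up the rest. The 12 lowest were Saa3, Tagln, Acta2, Cxcl13, Tmem176a, Tpm2, C4b, H2-Aa, Tmem176b, Vcam1, Cd74 and Icam1.

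**Figure D2:**
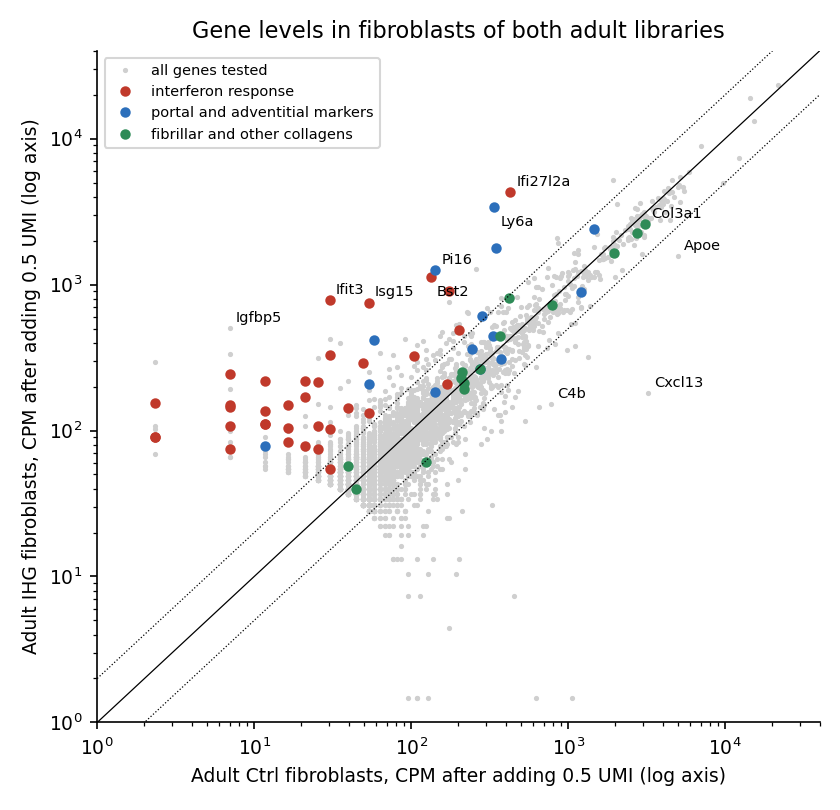
Level of each gene with at least 20 UMIs in adult Ctrl fibroblasts (x axis) against adult IHG fibroblasts (y axis), both in CPM after adding 0.5 UMI on log axes, with interferon, adventitial and collagen genes in colour, the line of equality solid and 2-fold lines dotted. The interferon genes lie above the line of equality, with Ifi27l2a at 424 CPM in Ctrl and 4303 CPM in IHG, and most collagens lie close to it.

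Interferon-stimulated genes were higher in the IHG fibroblasts throughout the list. Of 36 listed genes, 35 had at least 20 UMIs, all 35 were higher in IHG and 33 of them at least 2-fold. Their median log2 ratio was 3.19 (0.29 to 6.05), where the median over all genes was -0.05. The remaining gene, Oas1a, had 0 and 15 UMIs. Together the list took 0.172% of fibroblast UMIs in Ctrl and 1.28% in IHG. With the 3 genes at 0 in Ctrl set to a floor of 3 UMIs for the library, the median was 3.06. The list was known to stand apart in these data when it was chosen, so its count is a description.

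Ifi27l2a, an interferon-induced gene of the ISG12 family (chromosome 12, 103442167 to 103443680 in GRCm38), was the most abundant member. It had 91 UMIs in 25 of 48 Ctrl cells and 1459 in 59 of 65 IHG cells, or 424 and 4303 CPM, a log2 ratio of 3.34 (3.04 to 3.66). The median cell held 1 UMI in Ctrl and 17 in IHG, and the fullest cell held 5.81% of the gene's UMIs, so the difference did not rest on a few cells. Bst2, encoding tetherin, which holds budding viruses at the cell surface, had 28 UMIs in 23 Ctrl cells and 381 in 47 IHG cells, a log2 ratio of 3.08 (2.55 to 3.71). Isg15, a ubiquitin-like modifier, had 11 UMIs in 7 Ctrl cells and 255 in 38 IHG cells, with a log2 ratio of 3.81 (3.01 to 4.89). Ly6e, encoding a lipid-anchored surface protein, had 37 and 308 UMIs (2.38, 1.90 to 2.93).

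The IFIT genes, whose proteins bind viral RNA, showed the same direction. Ifit3 had 6 UMIs in 3 Ctrl cells and 266 in 35 IHG cells, with a log2 ratio of 4.70 (3.67 to 6.27). Ifit1 had 6 and 112 UMIs (3.45, 2.39 to 5.04), and Ifit2 had 4 and 26 (1.90, 0.51 to 4.02). Ifit3b had none in Ctrl and 52 in IHG, at least 11.0-fold higher against a floor of 3 UMIs, but it is a near-identical copy of Ifit3 and the split of reads between them is uncertain.

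Transcription factors and sensors of the pathway were also higher. Irf7, which amplifies interferon production, had 5 and 72 UMIs (3.06, 1.90 to 4.85), and Irf1, an early target of interferon gamma, had 43 and 165 (1.27, 0.79 to 1.80). The RNA sensor genes Ifih1, with 6 and 34 UMIs (1.75, 0.57 to 3.39), and Ddx58, with 0 and 30 (at least 6.33-fold higher), lay on the same side. Usp18, a brake on the type I receptor, likewise had 0 and 30 UMIs. Irf9, a DNA-binding factor of the pathway, had 6 and 18 UMIs and a log2 ratio of 0.85 with an interval of -0.47 to 2.55, which includes 0. Ifi27, a relative of Ifi27l2a, was near equal at 36 and 70 UMIs (0.29, -0.30 to 0.92). These were the 2 measured genes under 2-fold.

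Genes linked mainly to interferon gamma lay on the same side. Gbp2, a guanylate-binding GTPase, had 22 and 110 UMIs (1.64, 0.99 to 2.39), Iigp1, an immunity-related GTPase, had 4 and 74 (3.39, 2.13 to 5.46), and Gbp6, which was named by its rank, had 0 UMIs in Ctrl and 51 in 25 IHG cells, at least 10.8-fold higher. The immunoproteasome subunits Psmb8, Psmb9 and Psmb10 had 10 and 98, 5 and 36, and 4 and 57 UMIs, with log2 ratios of 2.57, 2.07 and 3.02. Known targets of type I and of type II interferon were thus both among the higher genes.

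The promoters of list members were searched for the letters of the interferon-stimulated response element, GAAANNGAAA on either strand (TTTCNNTTTC on the other), in windows from 250 bases before to 50 after the start site in RefSeq's GRCm38.p6 annotation. Matches may overlap each other, and the pattern can share bases with the second motif. Of 27 list genes with a promoter in the table, 16 held a match (59.3%), against 1079 of 27025 genes with a promoter (3.99%) and 122 of 2701 other genes measured in the fibroblasts (4.52%). The gamma-activated site, TTCNNNGAA, was found in 8 of the 27 (29.6%), against 9.55% of all promoters. The other 9 list genes included Ifi27, Ifi27l2a, Usp18, Rtp4, Iigp1, Parp14, Zbp1 and Ly6e. The windows printed here, which run from 160 to 21 bases before the start, are shown as examples of windows with matches in genes described above, chosen after the matches were known, and capitals mark matches to GAAANNGAAA or its reverse. Isg15 lies at chr4:156200839-156200978 on the minus strand, Ifit1 at chr19:34640729-34640868 and Ifit3 at chr19:34583369-34583508 on the plus strand, and Bst2 at chr8:71537493-71537632 on the minus strand, each written 5′ to 3′ on the strand of its gene.
Isg15: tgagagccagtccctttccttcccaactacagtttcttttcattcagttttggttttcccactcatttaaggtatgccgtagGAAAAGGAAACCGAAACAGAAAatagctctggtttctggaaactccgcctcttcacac
Ifit1: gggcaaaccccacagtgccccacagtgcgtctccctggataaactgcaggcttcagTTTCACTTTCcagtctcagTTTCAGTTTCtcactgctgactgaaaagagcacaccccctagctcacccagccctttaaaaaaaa
Ifit3: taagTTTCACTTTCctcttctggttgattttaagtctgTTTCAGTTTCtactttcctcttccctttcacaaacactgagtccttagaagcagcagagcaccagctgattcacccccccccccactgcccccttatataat
Bst2: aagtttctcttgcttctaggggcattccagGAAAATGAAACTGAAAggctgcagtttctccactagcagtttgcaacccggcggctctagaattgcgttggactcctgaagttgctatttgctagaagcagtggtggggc
In Isg15, 3 overlapping matches begin 78, 72 and 66 bases before the start. Ifit1 has 2 separate matches at 104 and 85 bases and Ifit3 2 at 156 and 122, all on the opposite strand, and Bst2 has 2 overlapping ones at 130 and 124. A match is a description of letters, and a window without one, as in Irf7 or Oasl2, says only that these letters are not in it.

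Per cell, the interferon list was spread over most IHG fibroblasts rather than held by a few. Its share of a cell's UMIs had a median of 0.157% in Ctrl (0 to 0.601%) and 1.23% in IHG (0 to 5.42%). Of the 65 IHG cells, 41 lay above the highest Ctrl cell, 44 were above 0.5% against 2 Ctrl cells, and 37 were above 1% against 0 of 48, which allows up to 6.25% of Ctrl cells (3 of 48). The distributions overlapped in the remaining 24 IHG cells. The 41 cells had a median of 5671 UMIs and the other 24 a median of 5950.5. When every cell was thinned to 1000 UMIs, which left 45 Ctrl and 60 IHG cells, Ifi27l2a was seen in 13 (28.9%) and 49 (81.7%), Bst2 in 5 (11.1%) and 31 (51.7%) and Isg15 in 1 (2.22%) and 18 (30.0%). In other adult cells Isg15 stood at 175 CPM in Ctrl and 222 CPM in IHG, values closer to each other than the 51.3 and 752 CPM of the fibroblasts.

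IHG fibroblasts more often carried Pi16, a peptidase inhibitor gene that marks adventitial fibroblasts, and the interferon list was higher in cells with and without it. A split by Pi16 was chosen after the data were seen. Among cells with a Pi16 UMI, 12 in Ctrl and 41 in IHG, the list had per-cell medians of 0.176% and 1.71%, and 30 IHG cells lay above every Ctrl fibroblast. Among cells without one, 36 and 24, the medians were 0.148% and 0.565%, and 11 IHG cells lay above every Ctrl fibroblast. With Pi16, 32 of 33 measured genes were higher (background 45.9%) and 30 at least 2-fold (13%), with a median of 3.36. Of the 33, 14 had 0 UMIs in the 12 Ctrl cells, so that median depends on the 0.5 UMI added. With those genes at the bound that a floor of 3 UMIs gives, the median was 1.60 and 27 were at least 2-fold higher. Without Pi16, 10 of 10 were higher (48.2%) and 9 at least 2-fold (7.22%), with a median of 2.24 and no gene at 0. The 14 genes at 0 passed the minimum of 20 UMIs through IHG alone, and the medians with and without Pi16 cover different genes, so they are not compared.

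The difference was also present between cells that clustered together. Clustering left out genes of the response lists unless a marker list held them too, and it could use other genes such as Ly6a. It gave 1 cluster with at least 20 cells of each library, 32 in Ctrl and 23 in IHG, led by C4b, Eln and Lox. In it the interferon list took 0.154% of UMIs in Ctrl and 0.664% in IHG, and its median log2 ratio was 1.77, lower than the 3.19 over all fibroblasts. A second cluster, led by Krtdap, Ly6c1, Ifit3b, Zfp385a, Igfbp5, Ly6a, Cd248, Iigp1, Zbp1 and Pi16, held 8 Ctrl and 37 IHG cells. It may be a feature of the IHG library. The portal and adventitial list summed to 15390 CPM in it, against 6838 CPM in the first cluster, so the libraries also differed in how their cells fell into these clusters. In the second cluster the interferon list took 0.343% and 1.74%. The third, led by Saa3, Slpi and S100a9, had 8 Ctrl and 5 IHG cells, and there the list took 0.150% and 0.275%. At a finer resolution no cluster had 20 cells of both libraries.

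**Figure D3:**
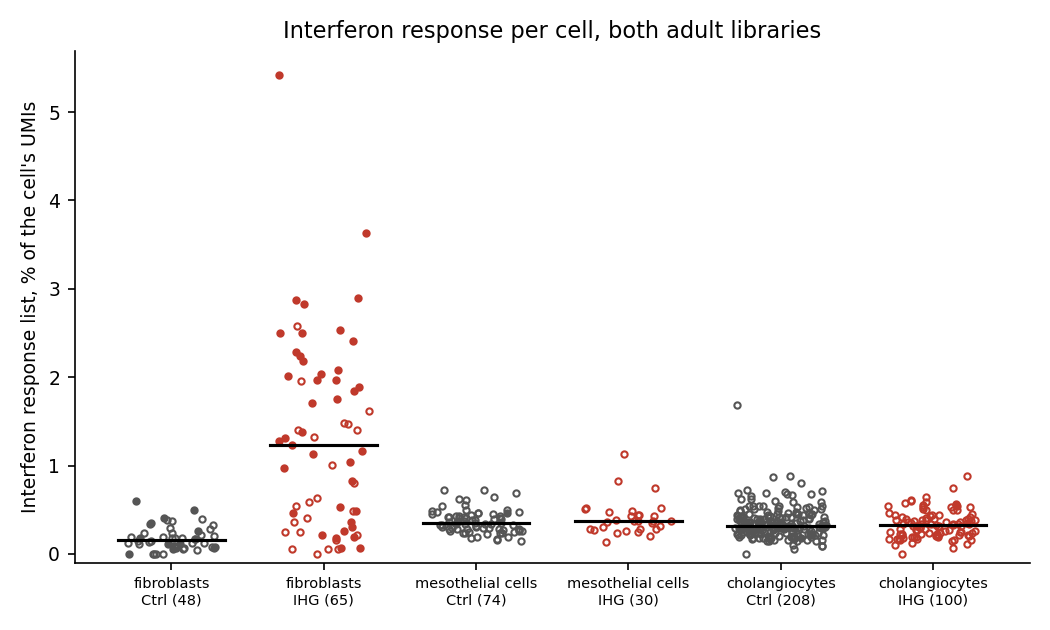
Share of each cell's UMIs in the interferon list (y axis, %), 1 point a cell, for adult fibroblasts, mesothelial cells and cholangiocytes of each library, filled where the cell had a Pi16 UMI, with a line at the median. IHG fibroblasts reach 5.42% and 41 of 65 lie above the highest Ctrl fibroblast at 0.601%, while medians of mesothelial cells are 0.348% and 0.372% in Ctrl and IHG.

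Other adult cells from the same suspensions did not show this pattern to the same size. In 74 Ctrl and 30 IHG mesothelial cells, the lining of the liver surface, chosen by at least 2 of 6 marker genes, 20 of 30 measured interferon genes were higher in IHG (49.4% of all genes in those cells) and 6 at least 2-fold (3.2%), with a median of 0.26. In 208 and 100 cholangiocytes, the bile duct cells, chosen by at least 2 of 5 marker genes, 9 of 35 were higher, with a median of -0.30 (any higher value in 50.3% of genes). Over all adult cells outside the fibroblasts, 5147 and 6721 with these groups included, 12 of 36 were higher (29.5% of genes), with a median of -0.15 that equals the -0.15 over all genes in them. Ifi27l2a stood at 544 and 607 CPM in these cells, against 424 and 4303 in fibroblasts. Ifit3 was at 11.7 and 11.2 CPM there, against 785 CPM in IHG fibroblasts. Whether the fibroblast difference exceeds that of other cells was not tested, since each is a single pair of libraries.

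Fetal cells chosen by the same rule were few, and most of their interferon genes had lower values in IHG. Of the 16 portal and adventitial markers only 1 was measured in them, and Clec3b, Cd34 and Ly6a had no UMI in those of either fetal library. Whether they are the same kind of cell as the adult fibroblasts was not tested. In 15 fetal Ctrl and 15 fetal IHG cells, 18 of the 36 interferon genes were measured, 5 were higher in IHG (background 46.8%) and 6 at least 2-fold lower (4.3%), with a median of -0.52. Isg15 was at 1367 CPM in fetal Ctrl and 318 in fetal IHG, and Ifit3 at 954 and 174. Fetal Ctrl cells stood above the adult Ctrl level of 51.3 CPM of Isg15, in other libraries of other depth. The list took 0.755% and 0.385% of UMIs in the fetal cells.

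**Figure D4:**
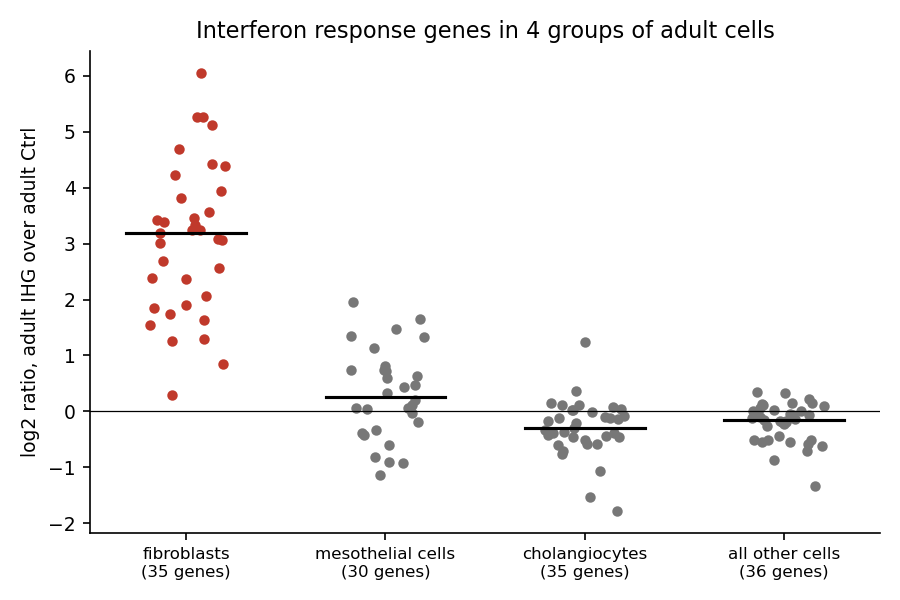
log2 ratio of IHG over Ctrl for each measured interferon gene (y axis) in adult fibroblasts, mesothelial cells, cholangiocytes and all other adult cells, 1 point a gene with the median as a bar. All 35 genes are above 0 in fibroblasts with a median of 3.19, and the medians of the other groups are 0.26, -0.30 and -0.15.

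Genes of antigen presentation split by class. MHC class I genes, which show peptides to CD8 T cells and are inducible by interferon, were higher in 8 of 8 measured, 2 of them at least 2-fold, with a median of 0.77. H2-T23 had 25 and 138 UMIs (1.78, 1.18 to 2.48) and H2-T22 had 2 and 38 (3.28, 1.64 to 6.68). The classical genes differed less, with H2-K1 at 0.76 (0.39 to 1.15), H2-D1 at 0.47 and the light chain B2m at 0.33. The 4 measured MHC class II genes were all lower, with a median of -1.99. Cd74, the invariant chain, had 285 UMIs in 18 Ctrl cells and 108 in 14 IHG cells (-2.06, -2.39 to -1.74). B cell markers, which come from cells rich in class II, were lower in the same direction at 625 and 271 CPM. Without the 10 Ctrl and 6 IHG cells that held RNA of other types the class II median was -1.21. In mesothelial cells class II genes were lower too, 5 of 5 with a median of -1.08 (any higher value in 49.4% of genes). In cholangiocytes 6 of 6 were lower, with a median of -0.22 (50.3%). Over all adult cells outside the fibroblasts 7 of 7 were higher, with a median of 0.29 (29.5%).

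Markers of adventitial fibroblasts, cells around vessels that express Pi16, Dpp4 and Ly6a and are known as a reserve from which other fibroblasts form, were higher in IHG. Of 16 markers 14 were measured, 11 were higher and 7 at least 2-fold, with a median of 0.91. Ly6a, encoding the surface protein Sca-1 (chromosome 15, 74994877 to 74998031), had 72 UMIs in 15 Ctrl cells and 1153 in 48 IHG cells, or 336 and 3401 CPM (log2 ratio 3.33, 3.00 to 3.71). Pi16 (chromosome 17, 29317680 to 29330593) had 30 UMIs in 12 Ctrl cells and 423 in 41 IHG cells (3.14, 2.62 to 3.74). Mfap5, an elastic microfibril protein, had 74 and 608 (2.37, 2.03 to 2.75), and Cd248, or endosialin, had 12 and 142 (2.85, 2.05 to 3.89). In thinned cells Pi16 was seen in 4 of 45 (8.89%) and 25 of 60 (41.7%), and Ly6a in 11 (24.4%) and 43 (71.7%).

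The other markers of that list had these values. Sema3c, a guidance cue, had 11 and 70 UMIs (1.96, 1.08 to 3.08), Dpp4, a dipeptidyl peptidase, 2 and 26 (2.75, 1.04 to 6.16), and Cd34 60 and 205 (1.10, 0.69 to 1.55). Clec3b, encoding tetranectin, was at 0.71 (0.52 to 0.91), Entpd2, an ectonucleotidase of portal fibroblasts, at 0.57 and Fbln2 at 0.41. Eln, the elastin gene, was at 0.37 with an interval of -0.26 to 1.07. Fbln1 at -0.44, Mfap4 at -0.27 and Col15a1 at -0.05 were the 3 on the lower side. Thy1 and Gli1, at 5 and 3 UMIs, were too few to read. Within cells with Pi16, the list's median was 0.34 with 7 of 13 higher, near the 45.9% of all genes in these cells. Those 13 include Pi16, which chose the cells, and Dpp4, which had 0 UMIs in Ctrl and 25 in IHG. Within cells without Pi16 the median was 0.65 with 9 of 10 higher (background 48.2%). The 2 medians cover different genes, so they are not compared. Ly6a is itself known to respond to interferon, and among cells without Pi16 it still had 9 and 181 UMIs, a log2 ratio of 4.99.

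Several other genes high in rank were seen in few Ctrl cells. Igfbp5, which binds insulin-like growth factors, had 1 Ctrl UMI and 170 in 14 IHG cells (6.17, 4.25 to 12.06), 31.0% of them in 1 cell. Angptl1, an angiopoietin-like secreted protein, had 0 and 52 UMIs in 15 IHG cells, at least 11.0-fold higher. Apod, a lipid carrier, had 1 and 65 UMIs (4.79, 2.83 to 10.69), 36.4% of them in 1 cell. Of Igfbp5's IHG UMIs, 158 were in cells with Pi16.

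Collagen and matrix genes had a median near 0, with members on either side. Over the 4 matrix lists, rule genes left out, 48 of 63 genes were measured, 29 were higher and 19 lower, 9 at least 2-fold higher (background 8.63%) and 2 at least 2-fold lower (6.69%), with a median of 0.09. Their sum was 2.25% of fibroblast UMIs in either library. Of the 29 matrix glycoprotein and elastic fibre genes among them, 10 had an interval above 0 and 6 an interval below it. The rule's own collagens, given as description, had log2 ratios of -0.24 for Col1a1, -0.29 for Col1a2 and -0.25 for Col3a1. Col6a1 was at -0.12 (-0.41 to 0.17) and Col5a2 at 0.25 (-0.28 to 0.81), both with intervals that include 0. Col14a1, a collagen bound to fibril surfaces, was higher at 90 and 275 UMIs (0.95, 0.60 to 1.31), and Col4a2, of basement membranes, lower at 26 and 20 (-1.03, -1.96 to -0.14).

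Among the glycoproteins and proteoglycans single genes stood on either side. Sparc, which binds collagen and guides its assembly, had 957 and 933 UMIs (-0.70, -0.83 to -0.57). Igfbp7 was at -0.52 and the proteoglycan Bgn at -0.49 (-0.74 to -0.24). Fbn1, the microfibril scaffold, had 26 and 120 UMIs (1.52, 0.92 to 2.22), Lama4, a laminin chain, 5 and 51 (2.57, 1.37 to 4.37) and Lamc1 31 and 114 (1.20, 0.63 to 1.84). Nid1, which links laminin to collagen IV, was at 0.94, and Fn1 was at 0.40 (0.15 to 0.66). Postn, a matricellular protein of remodelling tissue, had 9 and 50 UMIs (1.75, 0.78 to 3.02), and Vcan had 2 and 24 (2.63, 0.91 to 6.05). Thbs1, an activator of latent TGF-beta, was lower at 24 and 12 UMIs (-1.63, -2.79 to -0.60).

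Enzymes that mature or cut the matrix had no shared direction. Of 15 collagen-processing genes 10 were higher, with a median of 0.25, and 1 at least 2-fold lower: Lox, the cross-linking enzyme lysyl oxidase, with 79 and 39 UMIs (-1.67, -2.27 to -1.11). Its relative Loxl1 was at 0.70 (0.23 to 1.21) and Pcolce2 at 0.88 (0.42 to 1.37). Of 17 proteases and inhibitors 9 were higher, with a median of 0.07. Adamts5, an aggrecan-cutting protease, had 22 and 112 UMIs (1.66, 1.02 to 2.42). Timp2 was near equal at 0.07 (-0.12 to 0.26). Timp1 had 25 and 7 UMIs (-2.43, -3.95 to -1.25), with 14 of them in 1 Ctrl cell, and Mmp3 had 296 and 243 (-0.94), with 161 in 1 Ctrl cell and 114 in 1 IHG cell.

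TGF-beta signalling, the main known driver of collagen production in fibroblasts, had genes on either side. Of 16 genes 11 were higher, 1 of them at least 2-fold, and 2 at least 2-fold lower, with a median of 0.36 that ran from -0.25 to 0.43 over the alternatives run. Intervals lay above 0 for 2 genes and below it for 2. Pmepa1, a feedback target, had 26 and 105 UMIs (1.33, 0.72 to 2.03), Tgfbi 37 and 105 (0.83, 0.29 to 1.43) and the receptor Tgfbr2 33 and 79 (0.59, -0.00 to 1.23). Smad7, an inhibitor that TGF-beta induces, was lower at 35 and 27 (-1.03, -1.82 to -0.27), and Ccn1 was at 0.11. Growth factors and their receptors had a median of 0.03, with 8 of 15 higher. Pdgfra, the receptor that marks resting fibroblasts, was at -0.14 (-0.54 to 0.28) and Fgfr1 at 0.75 (0.16 to 1.40). Ackr3, a receptor that takes up CXCL12, had 37 UMIs in 18 Ctrl cells and 259 in 44 IHG cells (2.13, 1.65 to 2.69). Wnt4 had 36 and 8 (-2.76, -4.15 to -1.70), but its ratio ran from -2.84 to -0.42 over the first 14 alternatives run. In cells with Pi16 it changed sign.

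In the insulin-like growth factor list 8 of 13 genes were higher, with a median of 0.23. The growth factor Igf1 was lower at 113 and 95 UMIs (-0.91, -1.32 to -0.50), as was Igfbp3 at 96 and 83 (-0.87). Igfbp6, which favours binding of IGF2, had 182 UMIs in 32 Ctrl cells and 703 in 62 IHG cells (1.29, 1.05 to 1.53), and Igfbp4 was at 0.29 (0.05 to 0.54). The receptor Igf1r had 12 and 32 UMIs, with an interval that includes 0 (0.72, -0.24 to 1.85).

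Contractile genes had lower values in IHG, and for Tagln and Acta2 nearly all UMIs came from a single Ctrl barcode. Of 12 measured genes 1 was higher and 7 were at least 2-fold lower, with a median of -1.44. Tagln had 134 UMIs in Ctrl and none in IHG, 95.5% of them in that barcode, and Acta2, the smooth muscle actin of myofibroblasts, had 97 and 2, with 97.0% in it. The smooth muscle list summed to 1221 and 23.6 CPM. Without the 4 single barcodes described above the list's median was 0.28. Vim, the mesenchymal intermediate filament gene, had 571 and 1130 UMIs (0.32, 0.18 to 0.47). Abcc9, a potassium channel subunit of pericytes, was lower across cells, with 27 UMIs in 17 Ctrl cells and 3 in 3 IHG cells (-3.63, -6.20 to -2.13).

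Chemokines did not share a direction once single cells were accounted for. Of 11 measured, 2 were higher and 6 at least 2-fold lower, with a median of -1.04, but without the 4 single barcodes the median was 0.70. Cxcl13, which attracts B cells, had 688 and 61 UMIs (-4.15), 682 of them in the deepest Ctrl cell, and 2.43 without that cell and the other 3. Ccl2, a monocyte attractant, had 315 and 410 UMIs (-0.28, -0.50 to -0.06), with 279 in 1 Ctrl cell, and was at 2.70 without the 4 cells. Its UMIs were seen in 7 Ctrl and 19 IHG cells. Chemokines spread over more cells differed as follows. Cxcl12, which retains blood cell precursors, had 83 UMIs in 25 Ctrl cells and 53 in 23 IHG cells (-1.30, -1.83 to -0.79), Ccl19, a lymphocyte attractant, 93 in 31 cells and 49 in 24 (-1.58, -2.11 to -1.07), and Ccl7 238 in 16 and 183 in 21 (-1.04, and -0.86 without the 4 cells). Cxcl10, itself an interferon target, had 100 and 279 (0.82, 0.49 to 1.16), and Ccl11, or eotaxin, 4 UMIs in 4 cells and 59 in 17 (3.06, 1.79 to 5.14). In cells with Pi16 8 of 9 chemokines were higher (background 45.9%), with a median of 1.63. It was 1.12 with the 1 gene at 0 in Ctrl set to the bound that a floor of 3 UMIs gives. In cells without Pi16 the median was -0.57 with 3 of 10 higher (background 48.2%).

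Cytokine and NF-kB target genes were split. Of 18 measured, 6 were higher, 3 of them at least 2-fold, and 5 at least 2-fold lower, with a median of -0.16. Tnfaip6, which loads proteins onto hyaluronan, had 185 and 649 UMIs (1.15, 0.91 to 1.39), Has1, a hyaluronan synthase, 43 and 182 (1.41, 0.93 to 1.94), and Ptgs2, the inducible cyclooxygenase, 32 and 120 (1.23, 0.67 to 1.86). Nfkbia, the inhibitor that NF-kB induces, was at 0.59 (0.37 to 0.81). The adhesion molecules Icam1, with 47 and 18 UMIs (-2.02, -2.92 to -1.23), and Vcam1, with 42 and 15 (-2.12, -3.10 to -1.27), were lower, as was Sod2, with 98 and 57 (-1.44, -1.94 to -0.96). Without the 4 barcodes Sod2 was at -0.92, and in cells with Pi16 at -0.06. Il6 was seen in 10 cells of either library, with 15 and 21 UMIs (-0.19, -1.20 to 0.89). Over both lists together 8 of 29 genes were higher and the median was -0.37, and it was 0.06 without the 4 single barcodes.

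Acute-phase and IL-6 response genes leaned to the lower side in IHG. Of 31 listed, 16 were measured, 1 was higher and 5 at least 2-fold lower, with a median of -0.80. Without the 4 single barcodes it was -0.84, in cells with Pi16 -0.47 and in cells without Pi16 -0.94. Mt1, a metallothionein that binds zinc, had 2087 UMIs in 44 Ctrl cells and 1671 in 62 IHG cells, or 9729 and 4928 CPM (-0.98, -1.07 to -0.89), and Mt2 was at -0.80 (-0.99 to -0.61). Serpina3n, a secreted protease inhibitor, had 36 UMIs in 20 cells and 12 in 9 (-2.21, -3.32 to -1.27). The signalling genes Stat3, at -0.91 (-1.54 to -0.29), and Il6st, the shared receptor chain, at -0.81 (-1.49 to -0.13), lay on the same side. Socs3, the feedback inhibitor that STAT3 induces, was near equal at 176 and 260 UMIs (-0.10, -0.38 to 0.19). Saa3 came from 1 Ctrl cell alone. In all other adult cells the same list had a median of -0.55 with 3 of 23 genes higher (29.5% of genes), and in mesothelial cells -0.48 with 4 of 15 higher (49.4%).

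Complement genes, which fibroblasts secrete, were mixed. Of 10 measured, 4 were higher, with a median of -0.16. C3 was abundant and near equal, with 695 and 928 UMIs (-0.24, -0.39 to -0.10). C4b, encoding complement C4 (chromosome 17, 34728380 to 34743882), had 167 UMIs in 30 Ctrl cells and 51 in 14 IHG cells, or 779 and 150 CPM (-2.36, -2.85 to -1.91). It was at -3.17 in cells with Pi16 and -1.15 in cells without. C7 was at -0.97 (-1.54 to -0.41). Cd55, which shields cells from complement, had 23 and 87 UMIs (1.24, 0.58 to 1.99).

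Apoe, a lipoprotein component, was also lower across cells, with 1069 UMIs in 45 Ctrl cells and 532 in 46 IHG cells, or 4983 and 1569 CPM (-1.67, -1.82 to -1.52). The fullest cell held 8.49% of its UMIs. Fabp4, a fatty acid carrier, had 43 and 4 (-3.93, -6.03 to -2.63), 21 of them in 1 cell. Tmem176a had 70 UMIs in 23 Ctrl cells and 10 in 5 IHG cells (-3.41, -4.59 to -2.50), and its neighbour Tmem176b had 139 in 35 and 49 in 12 (-2.16, -2.67 to -1.69). Cyp2e1, a hepatocyte gene, was lower as well, with 23 and 4 UMIs (-3.05, -5.18 to -1.63), and the hepatocyte markers together stood at 121 and 35.4 CPM. The part of such RNA in the values for Apoe and Fabp4 was not tested.

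Lists of stress, energy and glucose genes had medians between -0.40 and 0.13, beside -0.05 over all genes. Their shares of higher genes lay below 47.2% in all but the unfolded protein response list. Immediate-early genes, which tissue digestion is known to induce, had a median of -0.18 with 9 of 26 higher, and took 4.03% of UMIs in Ctrl and 3.99% in IHG. Heat shock genes had a median of -0.12 with 4 of 12 higher. Oxidative phosphorylation genes had a median of -0.23 with 7 of 30 higher, antioxidant and metal-binding genes -0.40 with 5 of 21 and 3.49% of UMIs in Ctrl against 2.45% in IHG, and unfolded protein response genes 0.13 with 10 of 13. Glucose metabolism genes had a median of -0.17 with 4 of 12 higher. In that list Hk2, the inducible hexokinase, was at -0.56 (-0.84 to -0.28), while Txnip, a glucose-induced brake on glucose uptake, was at 0.07 (-0.30 to 0.44).

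**Figure D5:**
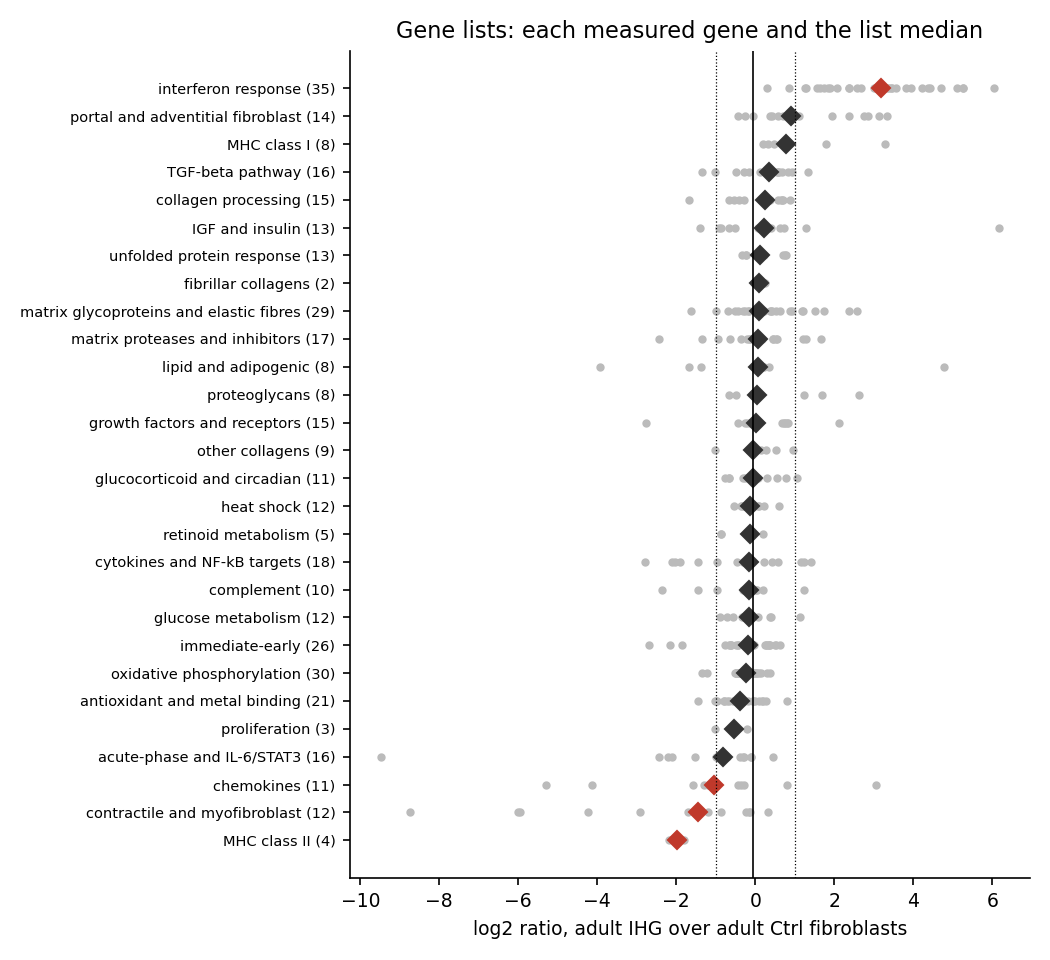
log2 ratio of adult IHG over adult Ctrl fibroblasts (x axis) for each measured gene of each list, with the list's median as a diamond (red where at least 2-fold), the median over all genes as a solid line, 2-fold lines dotted and the number of measured genes in brackets. The interferon list has its median at 3.19, the adventitial list at 0.91, and the class II, contractile and chemokine lists lie lowest at -1.99, -1.44 and -1.04.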

How the data were processed

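Male offspring liver was profiled in 4 libraries, of which the adult pair carries the comparison and the fetal pair is set beside it. The deposited values are UMI counts per gene and barcode from Cell Ranger 5.0.0, per the file headers, and the submitters' processing notes name mm10 and Seurat. Barcodes were those of the deposited matrices, with 17987173 adult Ctrl and 19366065 adult IHG UMIs. The rule for fibroblasts is given in the text. Counts were summed over fibroblasts of a library, and log2 ratios were taken as IHG over Ctrl after adding 0.5 UMI and scaling by the sums. Genes needed 20 UMIs over both libraries, and 2-fold was the threshold. With 1 library a group no test was run: ratios carry exact conditional Poisson intervals and shares above 0 exact Clopper-Pearson intervals, at 95%, while the limit beside a count of 0 is 3 counts of the total, without correction for multiple comparisons. PCR and pooling add error that these do not cover. Scrublet's own threshold marked 0% and 0.0147% of adult cells, so it had not worked and no cell was removed as a doublet, and the 95th percentile of its score served as an alternative. Clusters were found with scanpy 1.11.5 and the Leiden method of igraph 0.11.9. Scripts used Python 3.11.15, numpy 2.4.6, scipy 1.17.1 and pandas 2.3.3, and the ratio step was tested on simulated data.

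The members, gene lists and alternatives were chosen with earlier results of these data known. Genes named are the 7 rule genes, up to 8 members of each of 27 response lists with the most UMIs, the mesenchymal markers, the 12 highest and 12 lowest ratios at 100 CPM and 50 UMIs or more, and leading genes against other cells. Other list members named, such as most interferon genes after the first 8, were chosen after their values were seen. Values of some list members are not reported here. Gene positions are from GENCODE on GRCm38.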

Additional observations from a re-analysis of the deposited data

Results flagged for a closer look

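Adult fibroblasts and the fetal cells of the same rule had opposite signs for 3 results. None of these differences was tested, since each age has 1 library a group. The fetal cells lacked most of the adult cells' adventitial markers, so the 2 ages may not compare like cells. The interferon list had a median log2 ratio of IHG over Ctrl of 3.19 in adult fibroblasts and -0.52 in the 15 and 15 fetal cells of the same rule. The matrix lists had medians of 0.086 in adults and -0.38 in fetuses. The share of cells that met the rule had log2 ratios of 0.052 in adults (-0.51 to 0.62) and -0.09 in fetuses (-1.22 to 1.05), and both intervals include 0.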

How the results depend on the processing

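No paired analysis was possible because each group is 1 library, and for the same reason no library could be left out. In all, 14 alternatives were run, and 3 more (cells with Pi16, cells without it, and leaving out the 4 single barcodes) were chosen after seeing the data. Over the 8 that apply to it the log2 ratio of the share ran from 0.01 to 0.25, and over the 14 the interferon median ran from 2.93 to 3.35, the adventitial median from 0.63 to 0.96 and the acute-phase median from -0.86 to -0.59. The counts of genes at least 2-fold higher and lower were 71 and 46 with cells thinned to 1000 UMIs (715 genes), 119 and 66 with at least 50 UMIs (1427), 1736 and 2579 with at least 1 UMI (12538), and 126 and 159 in cells without Pi16 (1746). The interferon median was 2.93 with 2 rule genes required, 3.35 with cells weighted equally, 3.36 in cells with Pi16 (1.60 with genes at 0 in Ctrl set to their bound) and 2.24 in cells without. The matrix median was -0.050 without cells holding RNA of other types, -0.084 thinned, 0.22 with cells weighted equally, -0.18 in cells with Pi16 and -0.017 without the 4 single barcodes. The combined chemokine and cytokine median had no stable sign: -0.25 with 2 rule genes, -0.47 without RNA of other types, -0.49 without high Scrublet scores, 0.50 thinned, 0.27 without the deepest 5% of cells, 0.87 with Pi16, -0.65 without Pi16 and 0.056 without the 4 barcodes. Chemokines alone were at 0.090 thinned, 0.67 without the deepest cells and 0.70 without the 4 barcodes. With Pi16 they were at 1.63, or 1.12 with the gene at 0 in Ctrl set to its bound. The contractile list was at 0.28 without the 4 barcodes. Single genes were followed for 106 genes only, and other genes named above, such as Irf7, Iigp1 and Lama4, were not followed. Of the 61 followed genes past 2-fold, 17 fell under 2-fold somewhere in the first 14 alternatives. Over these and the 3 chosen later, 10 of the 61 changed sign somewhere. In cells without Pi16 these were Dpp4 (-0.0043), Has1 (-0.082) and Adamts5 (-0.32), and in cells with Pi16 Cxcl12 (0.83), Ccl7 (1.77), Wnt4 (1.71), S100a9 (-0.61) and Cxcl13 (1.02). Without the deepest cells Cxcl13 was at 1.96 and Cxcl5 at 0.84, without the 4 barcodes they were at 2.43 and 0.80, and Acta2 was at 0.010 with 4 rule genes required. At the finer cluster resolution no list value was had. The cause of these differences was not tested. Depth limits single genes: 20 UMIs over both libraries leave intervals several-fold wide.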
